A study of Mus musculus with 32 samples.

Results

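The gp130-STAT3 cytokine pathway was followed in mouse spinal cord RNA through 10 genes, listed by name: the ligands Lif, Clcf1 and Cntf, the receptor subunits Il6st, Osmr, Lifr and Cntfr, the kinase Jak2, the transcription factor Stat3 and the inhibitor Socs3. All 10 were found among the 42524 gene rows of the count table by pairing Ensembl identifiers with mouse gene symbols. Poly(A) RNA from 25 mg of spinal cord was sequenced for 32 mice, 4 in each of 8 groups.

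The groups combined a genotype, a treatment and a time. G93A mice carry a human SOD1 transgene with the G93A mutation, whose product kills motor neurons, and model amyotrophic lateral sclerosis (ALS); the strain is B6-Tg(SOD1-G93A)1Gur/J on C57BL/6J, with wild-type (WT) littermates as controls. The transgene is overexpressed in many copies, so the model carries more SOD1 as well as the mutation, and the human transcript itself was not analysed here. Mice were untreated or were given OKN-007, a nitrone compound, in drinking water, at a dose that the sample labels do not give, and they are labelled 90 or 155 days. The methods describe the time as an age, with a slightly later one for the earlier group than its label, and the design text as a length of treatment; the labels are used here. The labels give neither a library or sequencing batch nor the level of the cord that was taken. A mouse is called below by its replicate number, and per-mouse values are in the order of those numbers.

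The cytokines of this family signal through gp130, the protein made by Il6st. The gp130 protein pairs with a second chain such as the receptor for leukemia inhibitory factor (Lifr) or oncostatin M (Osmr). Ciliary neurotrophic factor (CNTF) also needs an added chain that binds the ligand (Cntfr). Ligand binding activates JAK kinases, which phosphorylate STAT3, and STAT3 then switches on genes that include Socs3, an inhibitor that binds gp130 and JAK and shuts the signal off. In injured spinal cord the pathway is known for its part in astrocyte reactivity, and CNTF and LIF are known as survival factors for motor neurons. STAT3 is regulated mainly by phosphorylation, which RNA does not measure.

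Levels are given as CPM, counts per 1000000 counts of the library, after scaling library sizes by trimmed mean of M values (TMM). Totals ran from 19701722 to 30138257 counts a mouse, with a median of 26658755, and 3 counts in the smallest library are 0.152 CPM. Tests are edgeR's quasi-likelihood test over all genes that passed a filter on low counts, with Benjamini-Hochberg adjustment, and a gene is said to have risen or fallen when its adjusted p was under 0.05. Cntf did not pass the filter, which left 9 of the 10 genes tested in each comparison. In bulk tissue, a change in the number of cells of a type cannot be told apart from a change in RNA per cell.

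The first comparison asked how transcripts of the pathway differed with genotype at 155 days without treatment. Of the 9 genes tested, 6 rose in G93A and 1 fell, beside 39.5% of 18675 genes called, 21.3% higher and 18.2% lower. All 9 had an unadjusted p under 0.05, beside 47.2% of genes, and DESeq2 called 8. Socs3 and Osmr rose most, followed by the ligands Lif and Clcf1, then Stat3 and Il6st. Lifr fell, and Cntfr and Jak2 did not pass the test. The median log2 fold change over the 9 was 0.92, beside 0.00 over all genes tested. For the 6 that rose, every G93A mouse was above every WT mouse, a separation that 33.3% of all genes tested also showed in one direction or the other.

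**Figure D1:**
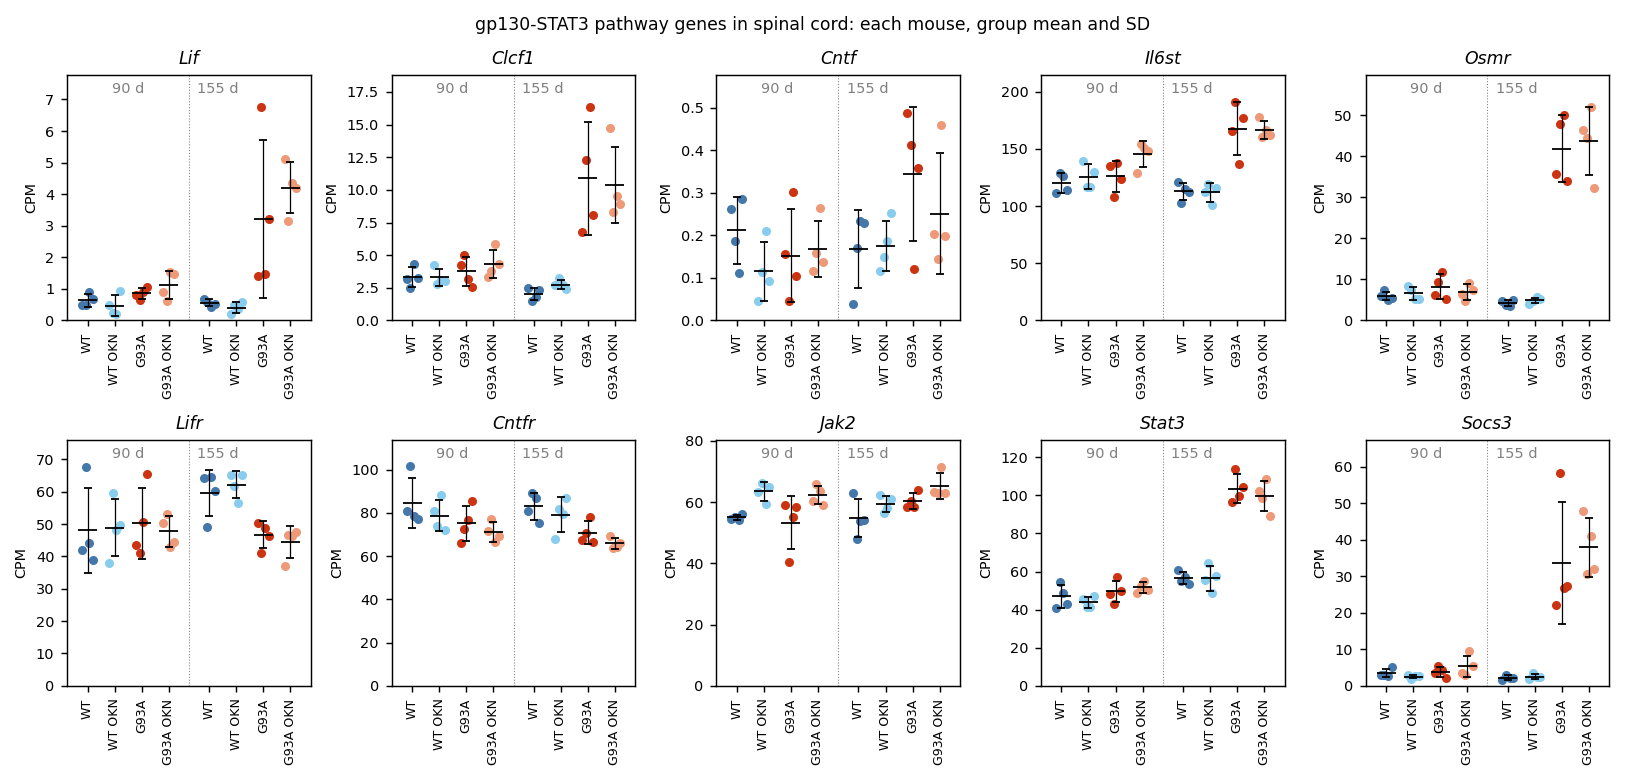
CPM of each of the 10 genes (vertical axes, linear from 0) in every mouse of the 8 groups, untreated or given OKN-007 (OKN), with the group mean (bar) and SD (whisker), n = 4; the dotted line parts 90 from 155 days. The means of both G93A groups at 155 days are above those of the other groups for Lif, Clcf1, Il6st, Osmr, Stat3 and Socs3, and Socs3 reached 58.4 CPM in 1 mouse.

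Among the ligands, Lif, a cytokine that binds Lifr with gp130, was at 0.685, 0.596, 0.428 and 0.523 CPM in the untreated WT mice and at 1.42, 6.75, 1.46 and 3.22 CPM in the untreated G93A mice at 155 days. The groups did not overlap, but the G93A mice were spread widely, with replicates 9 and 11 near 1.4 CPM and replicate 10 at 6.75 CPM. Lif rose by 2.55 on the log2 scale (SE 0.43, adjusted p = 0.000108), and by 1.94 when replicate 10 was left out.

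Clcf1, which encodes a ligand of the Cntfr complex, was at 2.51, 1.49, 1.79 and 2.32 CPM in WT and at 6.77, 12.3, 16.4 and 8.10 CPM in G93A. The lowest G93A mouse was above the highest WT mouse, and the log2 fold change was 2.45 (SE 0.26, adjusted p = 4.1e-07). In GENCODE M21, 8.17% of the exon length of Clcf1 is shared with another gene model on the same strand, so part of its counts could have been assigned elsewhere.

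Cntf, a survival factor for motor neurons, was close to the counting limit in all groups. It was at 0.0380, 0.170, 0.233 and 0.229 CPM in WT and at 0.486, 0.412, 0.122 and 0.358 CPM in G93A at 155 days, from 1 to 13 counts a mouse. The groups overlapped, and with no filter the log2 fold change was 1.07 (SE 0.59, adjusted p = 0.272). On that annotation 78.9% of its exon length lies in exons of Zfp91 on the same strand, so its counts are uncertain. A difference was neither detected nor excluded at this depth.

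Among the receptor chains, Osmr, the oncostatin M receptor, was at 4.64, 3.79, 3.61 and 4.97 CPM in WT and at 35.7, 47.8, 50.1 and 34.0 CPM in G93A. The 4 mice of each genotype were close to each other, and the genotypes were about 10.1-fold apart, a log2 difference of 3.34 (SE 0.17, adjusted p = 3.3e-11). Il6st, the shared gp130 chain, was at 121, 103, 115 and 113 CPM in WT and at 165, 191, 137 and 177 CPM in G93A. Its groups did not overlap either, with a rise of 0.62 on the log2 scale (SE 0.09, adjusted p = 1.8e-05).

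Lifr, the LIF receptor chain, was at 64.1, 49.2, 64.6 and 60.2 CPM in WT and at 50.5, 41.1, 48.8 and 46.4 CPM in G93A. WT replicate 2 lay within the G93A range, and Lifr fell by 0.30 on the log2 scale (SE 0.10, adjusted p = 0.0177). This call was lost when WT replicate 1 or 3 or G93A replicate 10 was left out (adjusted p = 0.0545, 0.0577 and 0.0882). Cntfr, the ligand-binding chain for CNTF, had means of 83.1 ± 6.32 CPM in WT and 70.8 ± 5.30 CPM in G93A (SD, n = 4), and its log2 difference of -0.19 did not pass the test (adjusted p = 0.066).

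Downstream, Jak2, one of the kinases that gp130 receptors use, had a mean of 54.8 ± 6.20 CPM in WT and 60.2 ± 2.59 CPM in G93A (SD, n = 4). The groups overlapped, and the log2 difference of 0.19 did not pass the test (adjusted p = 0.0552), though it did without WT replicate 1 (0.26, adjusted p = 0.0096). Stat3 was at 60.7, 54.8, 57.0 and 53.5 CPM in WT and at 96.4, 114, 99.5 and 104 CPM in G93A. Stat3 thus showed a smaller fold change than Socs3 or Osmr but a narrow spread, with a log2 difference of 0.92 (SE 0.08, adjusted p = 5.4e-08).

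Socs3, the feedback inhibitor, was at 1.52, 3.02, 2.10 and 2.26 CPM in WT and at 22.1, 58.4, 26.9 and 27.2 CPM in G93A. It was the member with the largest fold change in this comparison, 3.96 on the log2 scale (SE 0.30, adjusted p = 4.6e-09). Replicate 10 stood apart from the other G93A mice, and without it the log2 fold change was 3.58. The same mouse had the highest level in its group of Lif, Il6st, Stat3 and Socs3 and the lowest of Lifr, but not the highest of Osmr or Clcf1.

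Because STAT3 binds a short palindrome, written TTCNNNGAA where N is any base, the 250 bases upstream of the annotated start of each gene were searched for it in the RefSeq promoter sequences (build GRCm38.p6). The motif reads the same way on both strands apart from its 3 free bases, so 1 search covers both. Of the 9 members with a sequence, Socs3 alone held a match, beside 8.13% of 27025 genes. The windows of Socs3 and Osmr, the pair that rose most, are shown with the match in capitals, each on the minus strand and written 5′ to 3′.
Socs3, chr11:117969367-117969616: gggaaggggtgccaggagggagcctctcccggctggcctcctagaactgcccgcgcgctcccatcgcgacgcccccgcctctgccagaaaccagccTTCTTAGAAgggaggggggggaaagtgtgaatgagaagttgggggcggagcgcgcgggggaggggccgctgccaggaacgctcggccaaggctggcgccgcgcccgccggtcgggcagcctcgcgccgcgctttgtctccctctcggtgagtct
Osmr, chr15:6874314-6874563: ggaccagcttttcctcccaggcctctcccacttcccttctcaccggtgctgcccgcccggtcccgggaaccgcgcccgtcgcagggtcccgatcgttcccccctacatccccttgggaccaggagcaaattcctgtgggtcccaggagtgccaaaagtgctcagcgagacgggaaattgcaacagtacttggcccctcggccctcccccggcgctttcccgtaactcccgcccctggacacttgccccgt
The Socs3 match begins 154 bases before the annotated start, and the Osmr window has none. Among the other lists described below, 2 of 16 genes commonly given as STAT3 targets with a sequence (Bcl6 and Icam1), 1 of 3 receptors (Il31ra), 0 of 5 ligands, 0 of 4 JAK and STAT genes and 0 of 4 inhibitors held a match. The stricter form TTCCNGGAA, a subset of the first, was in no member's window and in 1.09% of all genes. A match is a description of letters and no measure of binding, and its absence here covers these 250 bases only.

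Levels of different genes were compared per length, as CPM per kilobase of annotated exon. In untreated WT mice at 155 days the order was Cntfr (29.9 ± 2.27, SD, n = 4), Jak2, Il6st (10.2 ± 0.675), Stat3 (5.93 ± 0.330), Lifr, Socs3 (0.769 ± 0.214), Clcf1, Osmr (0.351 ± 0.0540), Cntf and Lif. The ranges of Jak2 and Il6st overlapped, as did those of Stat3 and Lifr, of Socs3 and Clcf1, of Clcf1 and Osmr, and of Cntf and Lif. In untreated G93A mice Cntfr still came first at 25.4 ± 1.91. Il6st followed at 15.1 ± 2.08, with a range that overlapped those of Jak2 and Socs3. Socs3, at 11.6 ± 5.76, now overlapped Jak2 and also Stat3 at 10.9 ± 0.796, and Osmr, at 3.46 ± 0.680, overlapped Lifr at 4.33 ± 0.379. On full exon length Lif and Cntf were lowest in both genotypes. The place of Cntf is uncertain, since 78.9% of its exon length is shared with Zfp91 and a level over the unshared part was not computed.

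**Figure D2:**
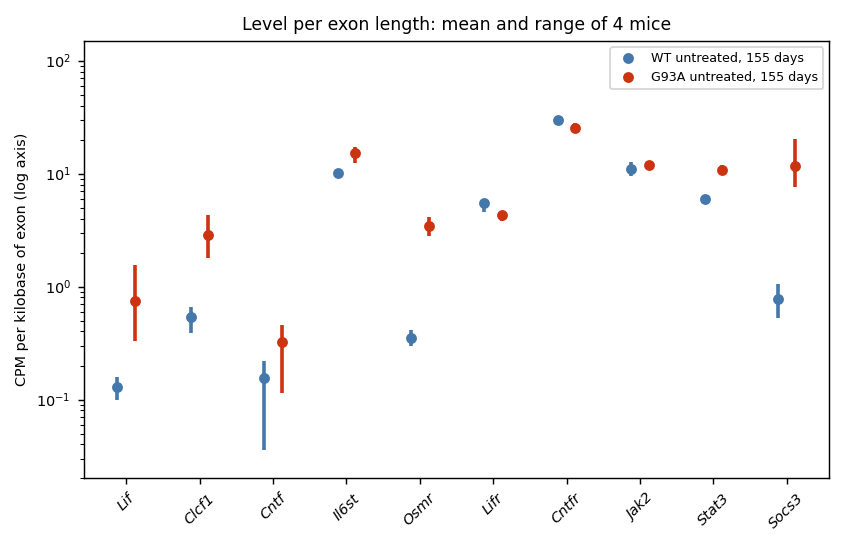
CPM per kilobase of annotated exon (vertical axis, log scale) for the 10 genes in untreated WT and untreated G93A mice at 155 days; points are means and bars the range of 4 mice. Cntfr is highest in both groups, while Socs3 goes from 0.769 to 11.6 and Osmr from 0.351 to 3.46.

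The other genes of the pathway were read from lists, chosen with earlier results of these data known. Of 7 other gp130 ligands, 4 were tested and 3 rose, with a median log2 fold change of 1.41 over the tested ones. Osm, the ligand of the Osmr complex, had from 1 to 5 counts in untreated WT and from 31 to 37 in untreated G93A mice, with a log2 fold change of 3.40 (SE 0.40, adjusted p = 1.6e-06). Osm passed the filter on low counts only through G93A mice, so the count and median above include a gene admitted because it was high there. Ebi3, a subunit that pairs with Il27, rose by 1.89, and cardiotrophin 1 (Ctf1) by 0.92. Il6, the best known ligand of gp130, was near 0, with 0 to 1 counts in WT and 2 to 6 in G93A mice, and it did not pass the filter, nor did Il27 and Ctf2. Il11 did not pass the test (0.26, adjusted p = 0.513).

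Of 4 other receptor genes, 3 were tested and all 3 rose. Il27ra, with 5 to 6 counts in untreated WT and 10 to 24 in untreated G93A mice, passed the filter only through G93A mice, so this count was not independent of its rise. Il6ra, the ligand-binding chain for the Il6 protein, had a mean of 3.43 ± 0.928 CPM in WT and 10.3 ± 3.57 CPM in G93A (SD, n = 4), a log2 fold change of 1.62. Il27ra rose by 1.68 from 0.218 CPM, and Il11ra1 by 0.45. Among 4 other JAK and STAT genes, Stat5a rose by 0.63 and the kinase Tyk2 by 0.44, whereas Jak1, another kinase used by gp130, fell by 0.35 and Stat5b did not pass the test (0.02, adjusted p = 0.884). A stretch of 72 exon bases of Stat3 lies antisense to Stat5a, and the counting is not stated to have used strand.

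Of 6 other inhibitors of JAK-STAT signalling, the phosphatase gene Ptpn2 rose by 0.62 (SE 0.10, adjusted p = 5.4e-05) and the other 5 did not pass the test. Socs1 was at 0.64 CPM in WT and 1.01 CPM in G93A (0.71, adjusted p = 0.0758). Socs2, Cish, Ptpn11 and Pias3 had log2 differences between -0.20 and 0.15. The median over the list was 0.15.

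Of 19 genes commonly given as STAT3 targets, 18 rose and Bcl2l1 did not pass the test (0.39, adjusted p = 0.105). The median was 1.71, beside 0.00 over all genes tested. Timp1, an inhibitor of metalloproteinases, had from 1 to 8 counts in WT mice and from 350 to 671 in G93A mice (6.82, SE 0.36, adjusted p = 8.9e-11). Timp1 too passed the filter at 155 days only through G93A mice. Serpina3n, a protease inhibitor of reactive astrocytes, rose by 4.87, the NF-kB cofactor Bcl3 by 4.10, the filament gene Vim by 3.87 and the transcription factor Cebpd by 3.62. Icam1 and Myc rose by 2.65 and 2.16, Gfap, the filament gene of astrocytes, from a mean of 2196 to 11262 CPM, and Hif1a, Pim1 and Bcl6 by between 0.41 and 0.59. Many of these genes have other regulators, and Gfap is also counted among the astrocyte markers below.

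**Figure D3:**
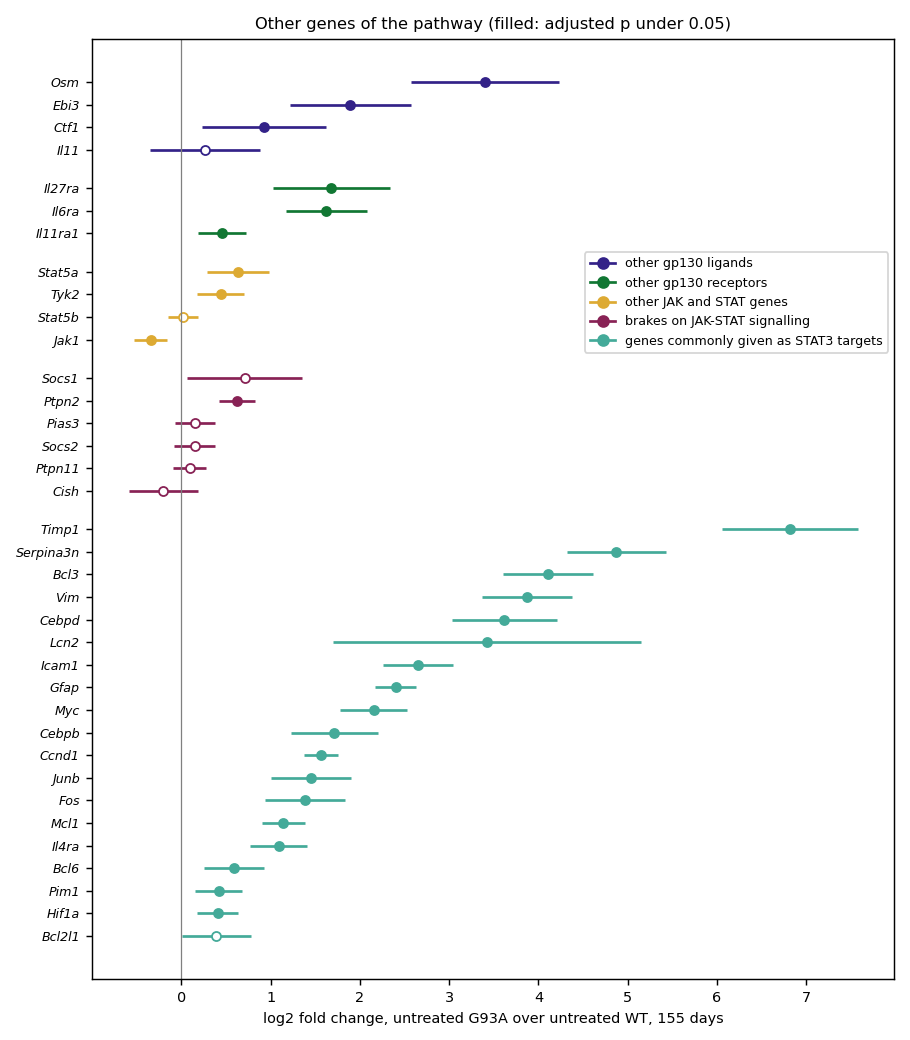
Log2 fold change of the tested genes of the 5 other lists in untreated G93A over untreated WT mice at 155 days (horizontal axis), with 95% confidence intervals; filled points have an adjusted p under 0.05. Of the genes commonly given as STAT3 targets, 18 of 19 are filled and to the right of 0, while 1 of 6 inhibitors is filled.

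Levels of cell type markers and of caudal Hox genes differed with genotype too. At 155 days 6 of 7 astrocyte markers and 6 of 6 microglia markers rose in untreated G93A mice, and 5 of 6 motor neuron markers fell. The summed level of the astrocyte list ranged from 3934 to 4350.3 CPM in WT and from 12295 to 16180.0 CPM in G93A mice, and that of the microglia list from 266 to 326 and from 1011 to 1699 CPM. Schwann cell markers summed to between 106 and 131 CPM in WT and between 133 and 156 CPM in G93A, where Egr2 and Pmp22 of the 5 rose. Liver markers summed to 19.7 CPM or less in WT mice and to 186 CPM in 1 G93A mouse, none of the 5 tested passed, and endothelial markers gave 0 of 4. Of 9 tested caudal Hox genes, which mark the level of the cord a piece comes from, 5 were lower in G93A, with summed levels from 89.9 to 157 CPM in WT and from 4.40 to 81.3 CPM in G93A. The part of these differences in the pathway's changes was not tested beyond a fit with the Hox score as a covariate. In that fit Socs3 rose by 3.53, Osmr by 3.33, Clcf1 by 2.36, Lif by 1.95, Stat3 by 0.88 and Il6st by 0.49, all with adjusted p under 0.05, and Lifr did not pass (-0.22, adjusted p = 0.241). The Hox score ran from 1.82 to 3.06 in untreated WT and from 0.34 to 1.84 in untreated G93A mice. With so little overlap the fit cannot separate genotype from the Hox score.

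The same comparison in mice given OKN-007 used different mice throughout. Of the 9 genes tested at 155 days, 7 rose in G93A over WT and 1 fell, beside 41.5% of 18675 genes called, 23.3% higher and 18.2% lower. Lif was at 0.192, 0.481, 0.375 and 0.575 CPM in WT and at 5.12, 3.16, 4.37 and 4.18 CPM in G93A mice given OKN-007, a log2 fold change of 3.43 (SE 0.44, adjusted p = 4.5e-06). The treated G93A mice were less spread than the untreated ones for Lif, and the groups did not overlap. Socs3 was at 1.73, 3.44, 2.32 and 2.41 CPM in WT and at 48.0, 30.7, 41.1 and 32.1 CPM in G93A (4.01, SE 0.29, adjusted p = 2.6e-09).

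Osmr rose by 3.23, Clcf1 by 1.99, Stat3 by 0.89 and Il6st by 0.65 on the log2 scale in these mice, and Lifr fell by 0.41 (adjusted p = 0.0019). All of these groups were apart, as were those of 45.4% of all genes tested. Jak2, at 62.3, 56.4, 58.1 and 60.9 CPM in WT and 63.3, 63.0, 71.5 and 63.0 CPM in G93A, rose by 0.21 (SE 0.07, adjusted p = 0.0309), with a call that 5 of the 8 single-mouse omissions removed. Cntfr did not pass (-0.19, adjusted p = 0.0589). Osm, Il27ra and Timp1 again passed the filter on low counts only through G93A mice, and the counts of the other lists include them. Among the other lists 3 of 4 tested ligands, 3 of 3 receptors, 2 of 4 JAK and STAT genes, 1 of 6 inhibitors and 17 of 19 genes commonly given as STAT3 targets rose, and 1 of the JAK and STAT genes fell. Beside them, 5 of 7 astrocyte, 6 of 6 microglia and 1 of 5 tested liver markers rose, 6 of 6 motor neuron and 2 of 4 endothelial markers fell, and of 5 Schwann cell markers 2 rose and 1 fell, and their part in the result was not tested. Caudal Hox genes were again lower, 6 of 9 tested, and with the Hox score as a covariate Lifr and Jak2 did not pass (adjusted p = 0.0619 and 0.192). Hox scores of the treated genotypes did not overlap (2.60 to 2.98 in WT, 0.77 to 2.17 in G93A), so this fit cannot separate them either.

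At 90 days the same contrast in untreated mice gave no call. edgeR called 0 of 18899 genes (0%), with 0 of the 9 members at an unadjusted p under 0.05, beside 5.96% of all genes, and DESeq2 called 0 members. The groups overlapped for all 9, while 2.5% of genes separated. Osmr was at 5.96, 7.32, 4.88 and 5.56 CPM in WT and at 6.30, 9.48, 11.8 and 5.17 CPM in G93A. G93A replicates 10 and 11 were above all WT mice and the other 2 were within the WT range, for a log2 difference of 0.49 (95% interval -0.03 to 1.01). Intervals for Stat3 (-0.09 to 0.29), Il6st (-0.09 to 0.27) and Lif (-0.41 to 1.30) lay below the changes seen at 155 days, though that for Lif was wide. So did those for Socs3 (-0.50 to 0.89), Clcf1 (-0.29 to 0.69) and Osmr.

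In mice given OKN-007 at 90 days edgeR also called 0 of 18899 genes and DESeq2 0 members, but 4 of 9 members had an unadjusted p under 0.05, beside 3.95% of all genes tested. Socs3 was at 2.85, 1.85, 2.56 and 2.56 CPM in WT and at 3.57, 3.0, 9.40 and 5.55 CPM in G93A. Every G93A mouse was above every WT mouse, as for 2.97% of genes tested, with a log2 difference of 1.13 (SE 0.34, unadjusted p = 0.0034 by edgeR across all genes). Lif (1.30, unadjusted p = 0.0061 by edgeR), Stat3 (0.23, 0.019) and Il6st (0.21, 0.025) had differences of the same sign. The Stat3 groups did not overlap either, with the lowest G93A mouse at 48.6 CPM and the highest WT mouse at 47.2 CPM. Those of Lif and Il6st did overlap. None of the 4 passed the adjustment over all genes. Without G93A replicate 15, the mouse at 9.40 CPM, the Socs3 difference was 0.73. In the same comparison 4 of 6 microglia markers (median log2 difference 0.25), 3 of 7 astrocyte markers (0.22), 2 of 4 endothelial markers (-0.17) and 1 of 8 caudal Hox genes (1.09) had an unadjusted p under 0.05, and their part in the result was not tested.

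**Figure D4:**
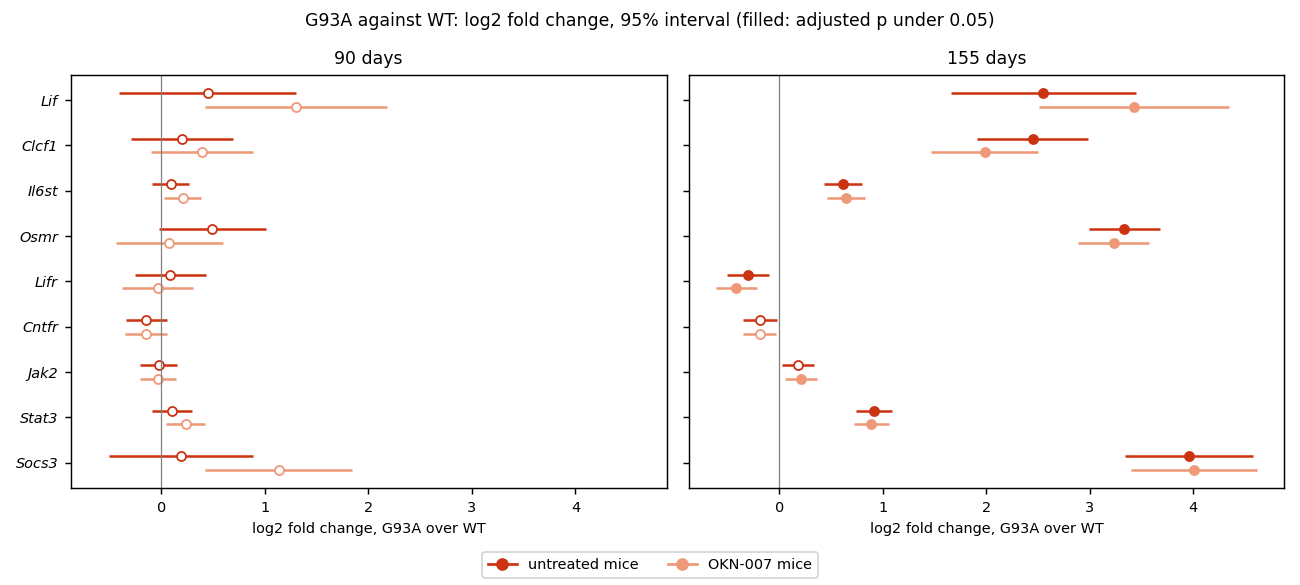
Log2 fold change of the 9 tested genes in G93A over WT (horizontal axis) with 95% confidence intervals, at 90 days (left) and 155 days (right), in untreated mice and in mice given OKN-007. No gene is filled (adjusted p under 0.05) at 90 days, and 7 untreated and 8 treated values are filled at 155 days.

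Whether the G93A change itself differed between the times was tested in 1 fit of all 32 mice. In untreated mice 6 of the 9 genes had a larger change at 155 than at 90 days, beside 12.9% of 19829 genes with a difference in that direction, 8.34% in the other and 21.2% in either. The difference was 3.76 for Socs3 (SE 0.47, adjusted p = 4.3e-07), 2.84 for Osmr, 2.24 for Clcf1, 2.08 for Lif (SE 0.61, adjusted p = 0.0137), 0.81 for Stat3 and 0.51 for Il6st. Lif lost its call without G93A replicate 10 of 155 days (1.44, adjusted p = 0.0622). It also did so without 2 mice of 90 days, WT replicate 3 and G93A replicate 10, whose summed Schwann cell markers of 834 and 238 CPM stood apart from 129 to 170 CPM in the other mice of that time (1.78, adjusted p = 0.0682). The remaining 5 kept their calls in both cases. Of the other lists, 2 of 4 ligands, 2 of 3 receptors, 2 of 4 JAK and STAT genes, 2 of 6 inhibitors and 16 of 19 genes commonly given as STAT3 targets had a larger change at 155 days, and so did 5 of 7 astrocyte and 4 of 6 microglia markers. Osm and Il27ra passed the filter here only through the G93A mice of 155 days.

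Within untreated G93A mice, Stat3 ranged from 43.2 to 57.0 CPM at 90 days (49.5 ± 5.72, SD, n = 4), below every mouse at 155 days, and rose by 1.08 on the log2 scale (adjusted p = 4.2e-11). Socs3, Osmr, Lif, Clcf1 and Il6st also rose with time, by 3.15, 2.38, 1.90, 1.55 and 0.43, which made 6 of 9 members beside 33.7% of 19829 genes called and 21% called higher. The times overlapped for Il6st and were apart for the other 5, as for 26.8% of all genes. Mice of different times are different animals and no batch is labelled. Within a genotype, time therefore cannot be told apart from a batch that differed between the times. Over the same time 6 of 7 astrocyte and 6 of 6 microglia markers rose and 4 of 6 motor neuron markers and 3 of 9 caudal Hox genes fell in these mice, and their part in the result was not tested. In untreated WT mice 1 member was called: Stat3 rose from a mean of 46.9 ± 6.01 to 56.5 ± 3.15 CPM (SD, n = 4; 0.28, adjusted p = 0.0197), with overlapping groups and beside 24.9% of genes called, 15.3% higher and 9.61% lower. Clcf1 (-0.69, adjusted p = 0.0526), Socs3 (-0.61) and Osmr (-0.46) had lower levels at 155 days that did not pass. The Stat3 call in WT was lost on leaving out WT replicate 1 or 4 of 90 days or WT replicate 1 or 3 of 155 days (adjusted p from 0.0604 to 0.148). In WT mice 4 of 5 Schwann cell markers fell with time, and 1 of 7 astrocyte markers rose and 2 fell. Summed Schwann cell markers were 834 CPM in WT replicate 3 of 90 days and from 130 to 136 CPM in the other untreated WT mice of that time. At 155 days they were from 106 to 131 CPM.

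The effect of OKN-007 was then read within each genotype. No member passed in G93A or WT mice at either time, where edgeR called 0% of genes. At an unadjusted p under 0.05 there were 0 of 9 members in G93A and 0 in WT at 155 days, 2 in G93A and 1 in WT at 90 days, beside 4.04%, 2.94%, 5.56% and 4.07% of genes in that order, and DESeq2 called 0 members in all 4 comparisons. In G93A mice at 155 days 0 of 9 members separated by treatment, beside 3.13% of genes. In G93A mice at 155 days the log2 difference was 0.19 for Socs3 (95% interval -0.30 to 0.69), 0.41 for Lif (-0.34 to 1.16) and 0.12 for Jak2 (-0.03 to 0.28). The intervals of Stat3 (-0.22 to 0.12), Il6st (-0.18 to 0.18) and Osmr (-0.22 to 0.37) also contained 0. Leaving out single mice moved the Lif difference between 0.16 and 1.04 and that of Socs3 between 0.04 and 0.58, both highest without untreated replicate 10. In G93A mice at 155 days 3 of 6 motor neuron markers (median log2 difference -0.36) and 2 of 9 caudal Hox genes (0.23) had an unadjusted p under 0.05 by edgeR. In WT mice of that time 2 of 6 microglia, 1 of 6 motor neuron and 1 of 5 Schwann cell markers did. Their part in the result was not tested.

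Jak2 was the member whose untreated and treated mice separated at 90 days. It was at 54.6, 55.1, 54.3 and 56.1 CPM in untreated WT and at 63.4, 66.4, 59.3 and 65.0 CPM in WT mice given OKN-007. In G93A mice it was at 59.1, 40.4, 55.3 and 58.5 CPM untreated and at 60.4, 65.8, 63.7 and 59.2 CPM with OKN-007. All treated mice were higher than all untreated mice of their genotype, as in 2.09% of genes tested in WT and 3.01% in G93A in one direction or the other, though by little in G93A. The log2 differences were 0.22 in WT (unadjusted p = 0.020 by edgeR, adjusted p = 0.993) and 0.21 in G93A (unadjusted p = 0.023, adjusted p = 0.837). Without the pair of mice with high Schwann cell markers, 1 of which is the untreated G93A mouse at 40.4 CPM, the G93A difference was 0.11. Markers were also at an unadjusted p under 0.05 by edgeR at 90 days. In WT these were 4 of 8 caudal Hox genes (median log2 difference -2.30), 4 of 5 Schwann cell (-0.85) and 2 of 4 endothelial markers (-0.25). In G93A they were 1 of 7 astrocyte, 1 of 6 microglia, 1 of 5 Schwann cell and 1 of 4 endothelial markers. Their part in the result was not tested. Il6st in G93A mice at 90 days had a log2 difference of 0.19 (unadjusted p = 0.039 by edgeR), and Socs3 one of 0.46 (95% interval -0.22 to 1.14), which was 0.06 without treated replicate 15 and 0.26 to 0.69 without any 1 of the others.

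**Figure D5:**
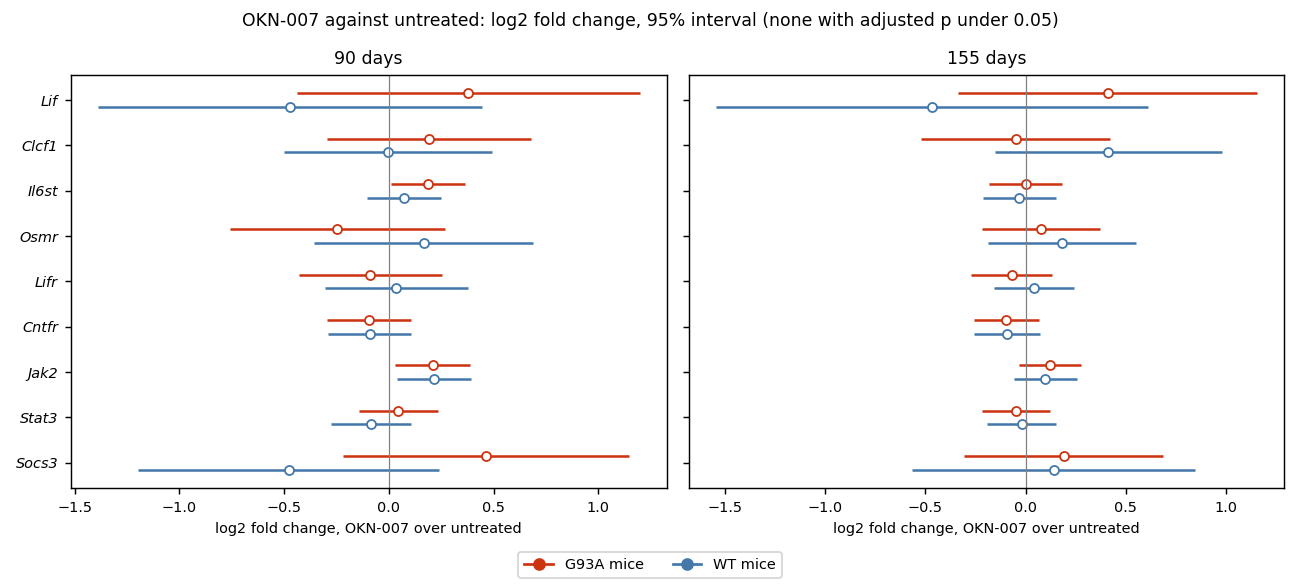
Log2 fold change of the 9 tested genes in OKN-007 over untreated mice (horizontal axis) with 95% confidence intervals, at 90 days (left) and 155 days (right), in G93A and WT mice; the panels have their own scales. All points are open, since no adjusted p was under 0.05, and the Jak2 intervals at 90 days lie above 0.

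Whether OKN-007 changed the G93A effect was asked with an interaction term at each time. edgeR called 0 of 18675 genes at 155 days and 0 of 18899 at 90 days, 0 members had an unadjusted p under 0.05, beside 2.34% and 2.81% of genes, and DESeq2 called 0 members. For Lif at 155 days, where the treated mice showed the larger fold change, the interaction was 0.88 on the log2 scale with a 95% interval from -0.44 to 2.19. For Socs3 at 90 days it was 0.94 (-0.05 to 1.93). These intervals are wide and contain 0, so with 4 mice a group both interactions remain undetermined.

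How Stat3, Socs3 and Osmr varied together was read over the 8 G93A mice of 155 days, untreated and treated, on log2(CPM + 1). Pearson's r was 0.63 for Stat3 and Socs3 (n = 8, exact permutation p = 0.0868, adjusted over 3 pairs 0.165), and Spearman's rho 0.57 (exact permutation p = 0.151, adjusted 0.227). For Stat3 and Osmr r was 0.62 (exact permutation p = 0.110, adjusted 0.165) and rho 0.62 (exact permutation p = 0.115, adjusted 0.227). For Socs3 and Osmr r was 0.53 (exact permutation p = 0.181, adjusted 0.181) and rho 0.31 (exact permutation p = 0.462, adjusted 0.462). No pair passed over the 8 mice. Without the 2 mice farthest from the median of the first gene r was 0.63, 0.32 and 0.46. Leaving them out narrows the range of the first gene, which can itself lower r. The drop for Stat3 and Osmr therefore does not show that its value rests on those mice. With 4 mice a treatment, r within each treatment was not computed.

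The genes whose pattern over the 8 group means was most like that of each of the 7 members called in untreated G93A against WT at 155 days were named by the root mean square difference of centred log2 CPM over 19763 genes. For Stat3 they were Lrig1, Erap1 and the astrocyte gene Aldh1l1 (0.043 to 0.050), and for Il6st Hspb3, Gnai3 and Wls (0.042 to 0.047). For Socs3 they were Cxcl16, Bcl3 and Itgb2 (0.125 to 0.133), for Osmr Arhgap25, Siglecf and Ctsz (0.070 to 0.101), for Lif Naip6, Gpr84 and Fam111a (0.107 to 0.116) and for Clcf1 Palld, AI506816 and Plat (0.085 to 0.095). For Lifr they were Ubfd1, Ccdc136 and Dlat (0.017 to 0.031). Likeness over 8 group means is a description and says nothing of shared control.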

How the data were processed

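RNA from 32 spinal cords was made into stranded poly(A) libraries and sequenced. The authors deposited 1 table of raw read counts per gene. Their methods name Trimmomatic, STAR, HTSeq and GENCODE M10, whereas the submitters' processing notes list FastQC, STAR, featureCounts, edgeR and the builds hg38, GRCm39 and mm39. Since these differ, no coordinate of a counted gene is given, and exon lengths and overlaps from GENCODE M21 are approximate. Symbols were paired by identifier for 41203 of 42524 rows (96.89%), and the columns matched the sample titles.

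The 10 genes, the other lists and the comparisons were chosen with earlier results of these data known. The names given are all 10 genes, members of the other lists past the threshold in untreated G93A against WT at 155 days or near 0, and the 3 genes most alike for each member called there. Il11, Stat5b, Bcl2l1, Socs1, Socs2, Cish, Ptpn11 and Pias3, which did not pass, were named after their values were seen. edgeR 4.0.16 (quasi-likelihood, TMM, filterByExpr, R 4.3.3) fitted the groups of 1 time together, or all 32 mice for comparisons between times. The script was tested on simulated data. Depth was 19701722 to 30138257 counts, and replicate libraries differed by more than sampling noise. The labels do not say whether the 4 replicates of a group are separate litters or cages, so p-values measure the spread between these samples only.

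Alternatives were RLE factors, DESeq2 1.42.0, no filter, at least 10 counts in every mouse, the Hox score, leaving out mice with high Alb, each mouse left out, all 32 mice or only the compared groups in the fit, and a replicate block. Leaving out the 2 mice with the highest summed Schwann cell markers at 90 days was added after the data were seen. A few genes of the other lists are not reported here. Same-numbered mice of the 2 times are different animals and did not deviate together.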

Additional observations from a re-analysis of the deposited data

Results flagged for a closer look

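Of 80 sets of 4 mice (10 genes in 8 groups), 5 held a mouse standing apart from the other 3 by Dixon's test at 95%, where chance gives about 4, at 1 in 20. Socs3 was 58.4 CPM in untreated G93A replicate 10 at 155 days, beside 27.2 CPM in the next mouse, and 5.15 CPM in untreated WT replicate 4 at 90 days, beside 2.98 CPM. Lifr was 36.9 CPM in G93A replicate 13 given OKN-007 at 155 days, beside 46.4 CPM. Cntfr was 102 CPM in untreated WT replicate 2 at 90 days, beside 80.8 CPM, and Jak2 was 71.5 CPM in G93A replicate 15 given OKN-007 at 155 days, beside 63.3 CPM.

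The change in untreated G93A against WT mice differed between 155 and 90 days, by the test of the difference in edgeR, for 6 genes. On the log2 scale the differences were 0.81 for Stat3, 3.76 for Socs3, 2.84 for Osmr, 0.51 for Il6st, 2.08 for Lif and 2.24 for Clcf1. Beside them, astrocyte markers differed in the same way for 5 of 7 genes and microglia markers for 4 of 6, and their part in the result was not tested.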

How the results depend on the processing

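With 4 mice a group and Lif and Cntf at or under a few CPM, counts limit those genes most. The number of members called stayed within 1.5 times the reported count in all comparisons but 2. In G93A against WT mice given OKN-007 at 90 days, 1 member (Socs3, adjusted p = 0.0379) was called in place of 0 with no filter on low counts. In untreated WT mice of 155 against 90 days, DESeq2 gave 2, no filter 0 and at least 10 counts in every mouse 2 in place of 1, and leaving out single mice gave 0 to 3. A replicate block gave 6 members for the difference of the G93A change between times, 6 for time in G93A and 1 for time in WT, as without it, so it changed no count; the replicate numbers name different mice (correlation of deviations between same-numbered mice, median -0.07). Stat3, Socs3, Osmr, Il6st and Clcf1 kept their calls in untreated and treated G93A against WT at 155 days and in the difference between times under every alternative. Lif lost its call in the last with the Hox score (1.75, adjusted p = 0.0607), and Lifr at 155 days in untreated mice with all 32 mice in 1 fit (adjusted p = 0.0954). Cntfr passed at 155 days in untreated mice with RLE factors and DESeq2 (adjusted p = 0.0482 and 0.0393), and without WT replicate 4 or G93A replicate 11 (0.0457 and 0.0332). In treated mice it passed with those tools (0.0345 and 0.0256), at least 10 counts (0.034), all 32 mice (0.0492), only the compared groups (0.0242) and without WT replicate 5 (0.0152). Jak2 passed in untreated mice with at least 10 counts (0.045), and in treated mice lost its call with RLE factors (0.0549), no filter (0.125), without the mice with high Alb (0.196) and with all 32 mice (0.0924). The uncalled difference between times of Cntfr, -0.05, ranged from -0.157 to 0.016 on leaving out single mice. Over all 13 comparisons 121 of 2093 member values under an alternative took the other sign, 0 of them called. The largest of them was 0.192 in size as reported. For the correlations, a pseudocount of 0.1 CPM changed no side of the threshold, and leaving out single mice gave r from 0.37 to 0.81 for Stat3 and Socs3, 0.38 to 0.80 for Stat3 and Osmr and 0.43 to 0.72 for Socs3 and Osmr.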
